A study of Mus musculus with 4 samples.

Results

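The acute phase proteins described here are 10 secreted plasma proteins whose genes were followed in mouse liver: the serum amyloid A genes Saa1, Saa2, Saa3 and Saa4, the orosomucoid genes Orm1, Orm2 and Orm3, the haptoglobin gene Hp, the lipocalin 2 gene Lcn2 and the serum amyloid P gene Apcs. They were listed by name and not by a cut on their values, though with earlier results of these data known. Each probe was assigned through the transcript accession given for it on the array and its symbol in the RefSeq gene table. All 10 were on the array, out of 23462 genes with a matched probe, and 11 of 56605 probes belonged to them (2 for Lcn2 and 1 for each other gene). By these accessions Saa1 and Saa2 carry their present names, which are listed as synonyms of each other in the table.

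The study asked how loss of LPIAT1 in hepatocytes altered the liver. LPIAT1, encoded by Mboat7, is an acyltransferase that supplies phosphatidylinositol with arachidonic acid. Liver RNA was hybridised to 4 one-colour Agilent arrays, 1 for each combination of genotype and diet, so that no difference has a replicate check, no test could be made and no p-value is given. How many mice contributed to each array is given neither in the labels nor in the methods. The first genotype, F/F, carried floxed Lpiat1 alleles and no Cre. The second, LKO, carried the same floxed alleles together with Alb-Cre, in which the albumin promoter drives Cre in hepatocytes, and Kupffer cells, neutrophils, stellate cells and endothelial cells of these livers keep the gene. All mice were males on a C57BL/6 background, aged 24 weeks, and had received chow (CE2) or the high fat diet HFD-60 (HFD) for 18 weeks from the age of 6 weeks. The 4 conditions were therefore F/F on chow, LKO on chow, F/F on HFD and LKO on HFD. Floxed alleles were present in every mouse, and no wild-type liver was among the arrays.

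In the acute phase response, interleukin-6 and interleukin-1 released by macrophages and other cells act on hepatocytes, where STAT3, C/EBP factors and NF-kB switch on a set of secreted proteins. Serum amyloid A, orosomucoid and haptoglobin are mainly hepatocyte products that travel in plasma, whereas lipocalin 2 is also made by neutrophils and Saa3 also by macrophages and fat. Liver RNA holds all of these cells, so fewer cells of a type and less RNA per cell cannot be told apart.

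The 4 serum amyloid A genes lie side by side on mouse chromosome 7 and the 3 orosomucoid genes on chromosome 4. Promoter sequences were taken from RefSeq (build GRCm38.p6), which gave an entry for 8 of the 10 genes, all but Orm1 and Hp, from 250 bases before to 50 bases after the start site. They are shown because the genes that differed most between the arrays are neighbours and copies of each other. The letters TTGCNNAA, a core recognised by C/EBP factors, were found on either strand in 7 of the 8 promoters, against 10.8% of all 32851 promoters in the table. Apcs was the one without them. Most of the 8 promoters belong to the serum amyloid A and orosomucoid copies, so their matches are not independent of each other. The windows below, 60 bases each and written 5′ to 3′ along the gene, hold the match in capitals. Saa4 had 2 matches, at -245 and -52 from the start site, and the others had 1. The match of Saa3 and the nearer one of Saa4 lie on the opposite strand.
Saa1 (chr7:46743129-46743188, minus strand): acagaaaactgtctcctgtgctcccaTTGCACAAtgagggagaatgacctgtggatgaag
Saa2 (chr7:46751624-46751683, plus strand): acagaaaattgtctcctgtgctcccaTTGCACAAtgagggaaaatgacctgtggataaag
Saa3 (chr7:46715742-46715801, minus strand): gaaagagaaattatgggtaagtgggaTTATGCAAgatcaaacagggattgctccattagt
Saa4, farther match (chr7:46732794-46732853, minus strand): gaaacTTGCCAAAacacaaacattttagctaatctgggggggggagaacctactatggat
Saa4, nearer match (chr7:46732622-46732681, minus strand): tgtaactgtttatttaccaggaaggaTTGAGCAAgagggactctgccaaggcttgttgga
Orm2 (chr4:63362303-63362362, plus strand): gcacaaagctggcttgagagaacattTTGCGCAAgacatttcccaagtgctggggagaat
Orm3 (chr4:63356011-63356070, plus strand): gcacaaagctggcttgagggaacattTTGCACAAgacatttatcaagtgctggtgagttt
Lcn2 (chr2:32387922-32387981, minus strand): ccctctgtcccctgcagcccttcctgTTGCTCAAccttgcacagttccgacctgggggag

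Saa1 and Saa2 carried the letters at nearly the same place, -182 and -183 from the start site, and Orm2 and Orm3 did so at -120 and -121. Over the whole 300-base promoter, 96.0% of the aligned bases were identical between Saa1 and Saa2 (287 of 299), and 89.5% between Orm2 and Orm3 (264 of 295). A STAT-type core, TTCNNNGAA, which reads the same on both strands, was found in 1 of the 8 promoters, that of Apcs, and in 8.30% of all promoters. An NF-kB-type core, searched on either strand as GGG and then CC with any 5 bases between them, was found in 4, those of Saa1, Saa2, Saa4 and Lcn2, and in 50.8% of all. The letters were chosen after the values had been seen, and a match describes the sequence without showing that a factor binds. Because these genes are copies, how far the Saa1 and Saa2 probes, and the probes of the 3 orosomucoid genes, tell their transcripts apart is uncertain; the probe sequences were not analysed here.

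All 11 probes were well above background and none was saturated on any array. Values are given as the processed signal of each array, in the intensity units of the scanner software, which cannot be set against each other between probes. Summed signals of marker lists are unscaled and weigh the brightest probes most. Differences are in log2 intensity scaled by the 75th percentile of the spots, computed array by array, which was 222 for F/F on chow, 213 for LKO on chow, 263 for F/F on HFD and 296 for LKO on HFD. The software's own error was about 10% of a signal, or 0.20 in log2 for a difference between arrays. Spots that repeat a probe within an array differed with an SD of 0.09, and a difference under 2 such SDs (0.19) is described as within the technical spread. That limit holds no error between arrays, so a difference past it can still be no larger than the software's error. Neither error holds the variation between mice.

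Saa1, the major inducible serum amyloid A of plasma, gave 87832 in F/F on chow, 142914 in LKO on chow, 78366 in F/F on HFD and 38529 in LKO on HFD. The highest array was thus LKO on chow and the lowest LKO on HFD, with both F/F arrays between them. Relative to F/F, LKO was 1.69-fold higher on chow (log2 difference 0.76) and 2.28-fold lower on HFD (-1.19). Saa2, its near-identical neighbour and also an inducible form, had signals of 144746, 201872, 119418 and 67785 on the same arrays in the same order. Its order over the arrays was that of Saa1, with an LKO minus F/F difference of 0.54 on chow and -0.98 on HFD.
Saa3, made in mouse liver and in macrophages and adipose tissue, had 1752 in F/F on chow, 1436 in LKO on chow, 1881 in F/F on HFD and 1138 in LKO on HFD. Here LKO was the lower genotype on both diets, at -0.23 on chow and -0.89 on HFD (log2). The constitutive form Saa4, carried on high density lipoprotein, had 10423, 9350, 7060 and 3430. Its signals on the chow arrays differed by -0.10, within the technical spread, whereas on HFD LKO was 2.31-fold lower (-1.21). LKO on HFD was the lowest of the 4 arrays for each of the 4 serum amyloid A genes.

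**Figure D1:**
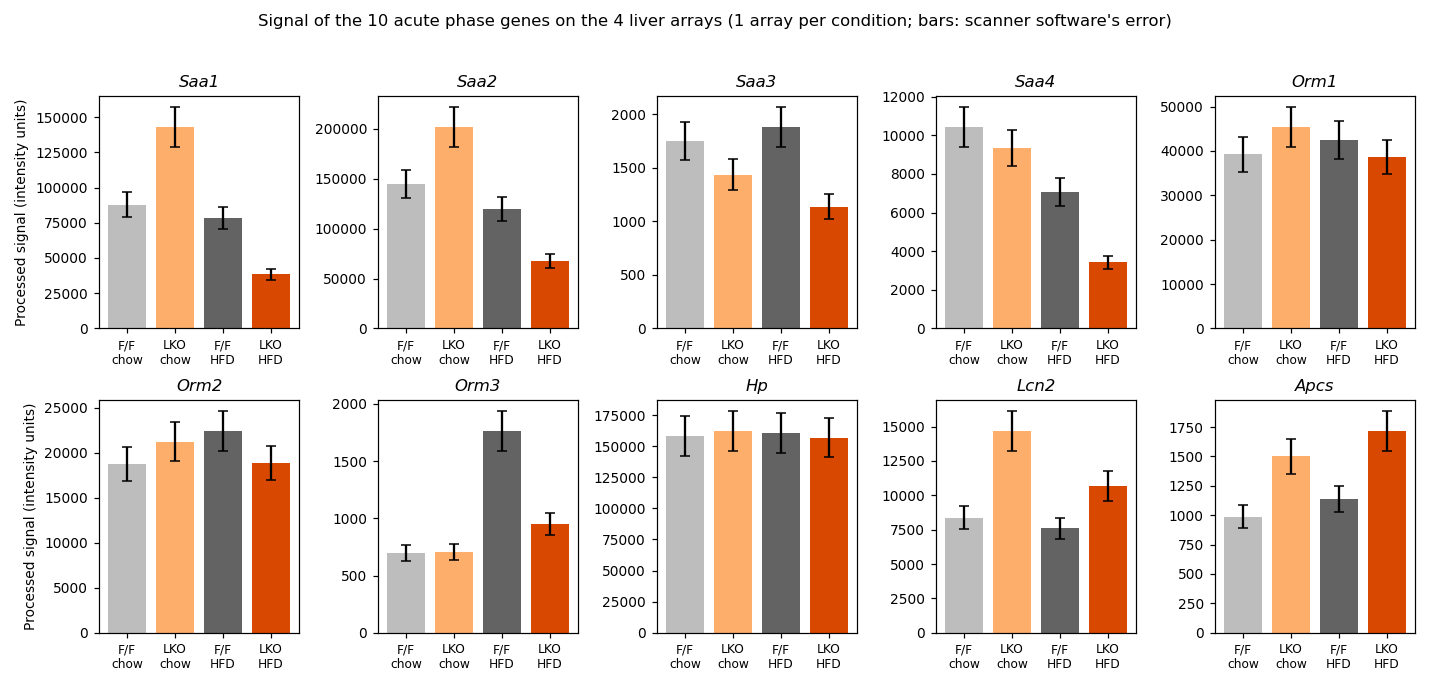
Processed signal (vertical axis, intensity units, from 0) of the 10 genes on each of the 4 liver arrays (horizontal axis), with bars for the software's error of about 10% and the brightest probe standing for Lcn2. Saa1 ran from 38529 to 142914 while Hp stayed between 157033 and 162044.

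Among the orosomucoids, which bind basic drugs and lipids in plasma, the 2 genes with large signals differed little. Orm1 had 39270 in F/F on chow, 45380 in LKO on chow, 42488 in F/F on HFD and 38699 in LKO on HFD, a highest to lowest ratio of 1.17. Orm2 had 18777, 21244, 22378 and 18892, a ratio of 1.19. After scaling, both were higher in LKO on chow (0.26 and 0.23) and lower in LKO on HFD (-0.30 and -0.41). Orm3 stood apart from them. Its signal was 699 in F/F on chow and 709 in LKO on chow, 1761 in F/F on HFD and 948 in LKO on HFD, so that F/F on HFD was high and, after scaling, the others lay within 0.08 of each other. The genotypes differed by 0.08 on chow, within the technical spread, and by -1.06 on HFD, where LKO was 2.09-fold lower.

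Hp, which encodes the plasma carrier of free haemoglobin, was the flattest member. Its signals were 158421, 162044, 160561 and 157033, a highest to lowest ratio of 1.03, and its genotype differences after scaling were 0.09 on chow and -0.20 on HFD. The latter was the same size as the median of the 700 brightest genes (the top 5%) in that comparison, which was also -0.20, and quantile normalization took it to -0.02. Red cell markers moved beside it on HFD: all 5 with a value were lower in LKO, with a median of -0.96 and a summed signal that was 52467 for F/F against 29948 for LKO. Their part in the haptoglobin value was not tested.

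Lcn2 and Apcs went the other way on HFD. The brighter Lcn2 probe, for a siderophore-binding protein of bacterial defence, had 8361 in F/F on chow, 14658 in LKO on chow, 7599 in F/F on HFD and 10671 in LKO on HFD. Its other probe had 1716, 3032, 1623 and 2318. Both probes put LKO above F/F on each diet, by 0.87 and 0.88 on chow and by 0.32 and 0.35 on HFD. Apcs, a pentraxin and the main such acute phase protein of the mouse, had 988 and 1502 on the chow arrays and 1137 and 1714 on the HFD arrays. LKO was higher by 0.66 on chow and 0.42 on HFD, so that for both genes every LKO array lay above every F/F array in signal. After scaling this held for Apcs. The brighter Lcn2 probe in LKO on HFD (log2 level 5.17) lay just under F/F on chow (5.24). The other Lcn2 probe lay just above it (2.97 against 2.95).
Neutrophils also make lipocalin 2. Of 11 neutrophil markers with a value, 8 were lower in LKO on chow (median -0.27) and 8 on HFD (-0.19). The summed signal of the list was 16691 and 14512 in F/F and LKO on chow and 17888 and 16470 on HFD. Most of each sum was Csf3r, with 11553 and 11768 on chow and 11536 and 11818 on HFD. The calcium-binding protein genes S100a8 and S100a9 were lower in LKO by -1.01 and -0.99 on chow and by -0.68 and -0.74 on HFD, and Ngp was not well above background on any array. The granule genes did not share 1 direction on HFD, where Ltf (1.23), Mpo (0.65) and Elane (0.10) were higher in LKO and Camp (-0.30) was lower. The part of neutrophils in the Lcn2 values was not tested.

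Put together, 8 of the 10 genes were higher and 2 (Saa3 and Saa4) lower in LKO on chow, where 50.7% of all genes were higher. The members' median difference was 0.25, against 0.00 over all genes. The differences of Orm3, Hp and Saa4 lay within the technical spread. At the 2-fold threshold, 0 of the 10 genes were higher and 0 lower, where 1.11% of 14981 genes were at least 2-fold higher and 1.03% at least 2-fold lower. On HFD, 2 genes (Lcn2 and Apcs) were higher and 8 lower, where 45.9% of all genes were higher. The members' median was -0.65 against -0.03 over all genes. The smallest difference in size, that of Hp (-0.20), was no larger than the software's error (0.20). The 3 genes Saa4, Saa1 and Orm3 were at least 2-fold lower, where 1.91% of 15528 genes were, and 0 were at least 2-fold higher, where 2.36% of genes were. Saa2, at 1.98-fold lower, lay just short of the threshold.

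**Figure D2:**
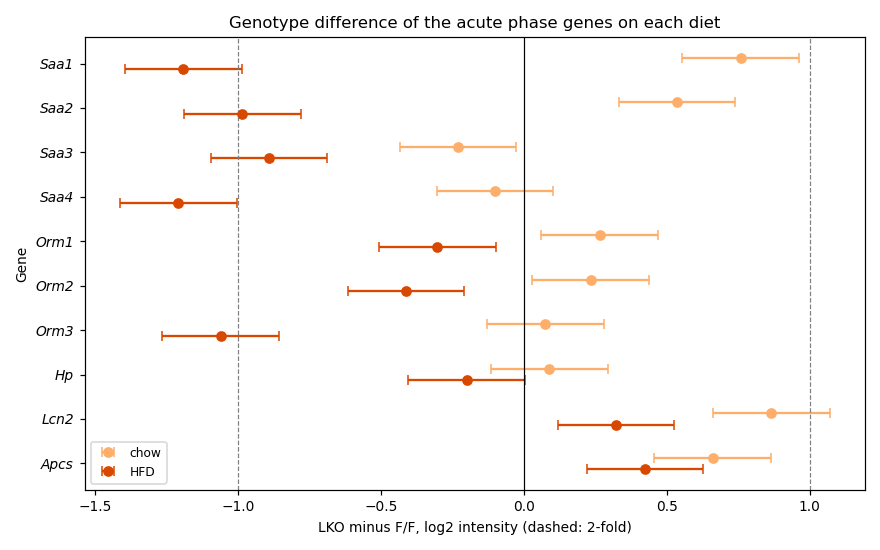
LKO minus F/F in log2 intensity (horizontal axis) for each gene (vertical axis), on chow and on HFD, with the software's error of 0.20 as bars and dashed lines at 2-fold. Saa1, Saa2, Orm1 and Orm2 lay right of 0 on chow and left of it on HFD, while Lcn2 and Apcs lay right of 0 on both diets.

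The genotype difference on HFD minus that on chow was -1.95 for Saa1, -1.52 for Saa2, -1.14 for Orm3, -1.11 for Saa4 and -0.66 for Saa3. It was -0.65 for Orm2, -0.57 for Orm1, -0.54 for Lcn2, -0.29 for Hp and -0.24 for Apcs. Saa1, Saa2, Orm3 and Saa4 thus had the larger values and Hp and Apcs the smaller, while Saa3 lay close to Orm2 and Orm1. For the 700 brightest genes the median genotype difference was 0.03 on chow and -0.20 on HFD. How many of all genes had a value below 0 here was not computed. Before scaling, the log2 genotype difference of Apcs was 0.60 on chow and 0.59 on HFD, and that of Hp was 0.03 and -0.03. The values of these genes thus rest largely on the scaling. With 1 array per condition none of the members' values could be tested.

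Diet was compared within each genotype on the same 4 arrays, so these values share their arrays with those above. In F/F, Orm3 was 2.12-fold higher on HFD (log2 difference 1.09), 1 of 10 members at least 2-fold higher where 5.21% of 15358 genes were, and 0 members were at least 2-fold lower where 2.94% of genes were. Saa4 was lower on HFD by -0.81, Saa2 by -0.52, Saa1 by -0.41, Lcn2 by -0.39 at its brighter probe and -0.33 at the other, and Hp by -0.23. The remaining 4, Saa3 (-0.14), Orm1 (-0.13), Apcs (-0.04) and Orm2 (0.01), were within the technical spread. The members' median in F/F was -0.19, against -0.02 over all genes and -0.18 over the 700 brightest.
In LKO all 10 genes were lower on HFD, where 43.5% of all genes were higher. Saa1 was 5.14-fold lower (-2.36), Saa2 4.13-fold (-2.05) and Saa4 3.78-fold (-1.92), 3 of 10 members at least 2-fold lower where 4.07% of 15242 genes were. At least 2-fold higher were 0 members and 8.12% of genes. Smaller differences were found for Lcn2 (-0.93), Saa3 (-0.81), Orm1 (-0.70), Orm2 (-0.64), Hp (-0.52) and Apcs (-0.28). Orm3 differed by -0.05, within the technical spread. The median was -0.75, against -0.07 over all genes and -0.39 over the 700 brightest. Under quantile normalization, which removes such a shift with brightness, Hp differed by -0.01, Orm1 by -0.32 and Saa1 by -1.93.

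**Figure D3:**
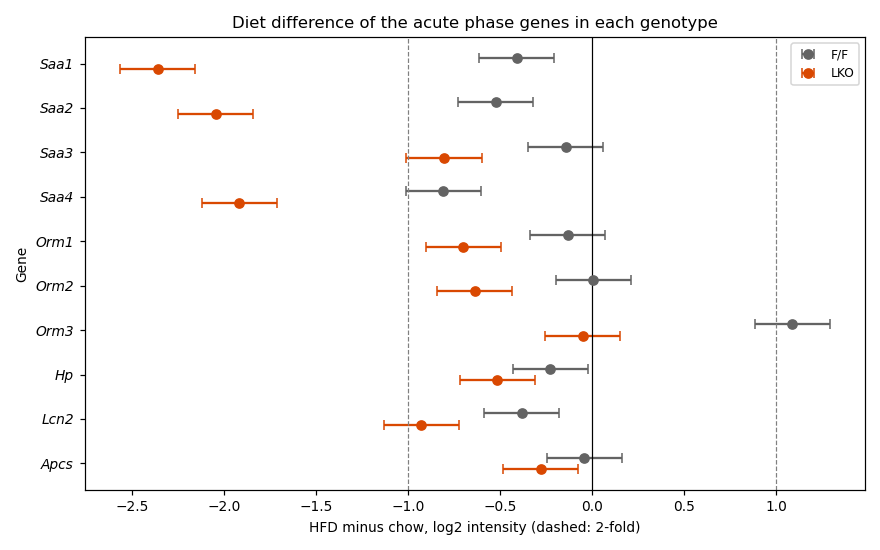
HFD minus chow in log2 intensity (horizontal axis) for each gene (vertical axis) in F/F and in LKO, with the software's error of 0.20 as bars and dashed lines at 2-fold. Saa1, Saa2 and Saa4 lay beyond 2-fold lower in LKO and short of it in F/F, and Orm3 lay beyond 2-fold higher in F/F alone.

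The other genes of the response were described from lists. Of 30 other positive acute phase proteins, 29 had a value (A2m was not well above background). On HFD 10 were higher and 19 lower in LKO, with a median of -0.07, 1 at least 2-fold higher and 0 at least 2-fold lower, and on chow 24 were higher and 5 lower (median 0.06). Among them, Cd14, the lipopolysaccharide co-receptor, differed by 1.14 on HFD and Itih4 by -0.51. The fibrinogen chains Fga, Fgb and Fgg differed between the genotypes on HFD by 0.09, 0.10 and -0.05, and the antiprotease Serpina3n by -0.04. At the scaling used here the fibrinogen chains and Serpina3n differed less between the genotypes on HFD than any of the 10 members. This does not hold for the whole list. Serpina3k (-0.45), Fgl1 (-0.36), Serpina3m (-0.35) and Serpina1b (-0.34) were lower in LKO on HFD by more than Hp or Orm1. Between the diets larger differences were found, with Fga at -1.17 in F/F and -1.15 in LKO for HFD minus chow, Serpina3n at -0.95 and -1.30, and the metalloreductase Steap4 at -1.22 and -1.15. The list's median was -0.37 for diet in F/F and -0.56 in LKO.
All 15 negative acute phase proteins, which fall in plasma during the response, had a value. On HFD 2 were higher and 13 lower in LKO (median -0.21, against -0.20 for the 700 brightest genes), led by Serpina6, the corticosteroid-binding globulin (-0.99), Afm (-0.47) and Ttr (-0.43). Quantile normalization took this median to 0.00 and that of the other positive proteins to 0.06. The median of 10 hepatocyte markers was -0.21 as well. None of the 15 was 2-fold different between the genotypes on either diet.

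**Figure D4:**
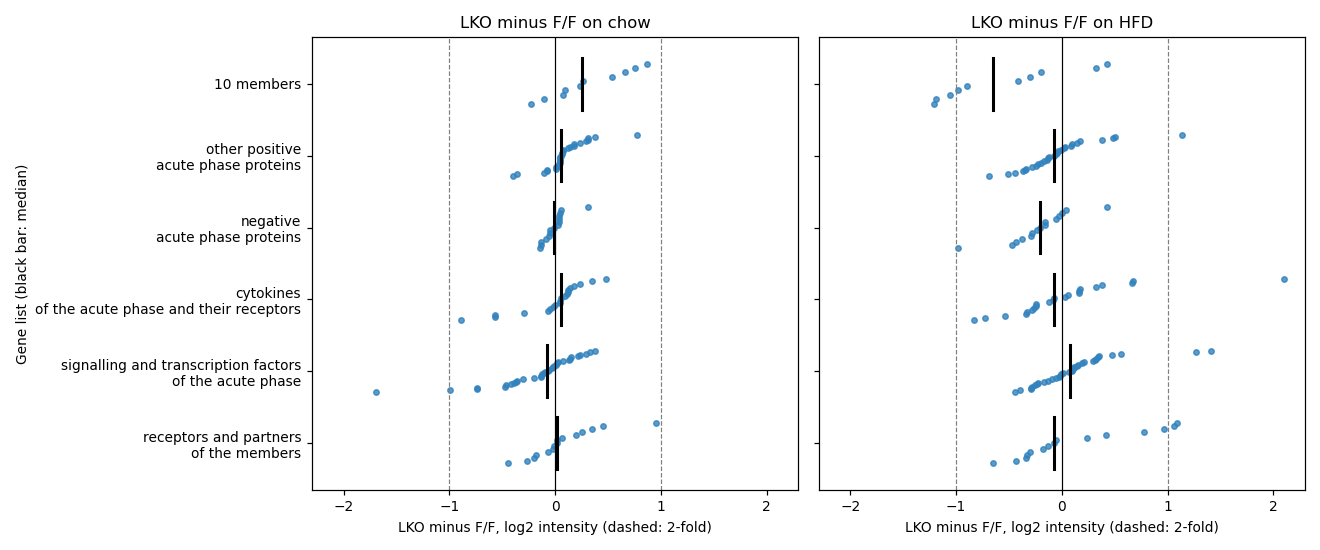
LKO minus F/F in log2 intensity (horizontal axis) on chow (left) and HFD (right) for the members and 5 lists of related genes (vertical axis); each point is a gene, black bars are medians and dashed lines mark 2-fold. The members' median was 0.25 on chow and -0.65 on HFD, while those of the other lists on HFD lay between -0.21 and 0.08.

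Upstream of these proteins, 22 of 23 cytokines and receptors had a value on HFD, 10 higher and 12 lower in LKO with a median of -0.08, and 1 was at least 2-fold higher. That one was the cytokine Il6, with signals of 12.5, 7.48, 3.55 and 40.1, well above background on F/F chow and LKO HFD alone. Il22 (-0.84, from signals of 22.8 and 14.3), the interleukin-1 receptor subunit Il1rap (-0.72) and Il10rb (0.67), a subunit of the interleukin-10 and interleukin-22 receptors, differed most among those measured on both arrays. The interleukin-6 receptor subunits Il6ra and Il6st differed by -0.26 and 0.16. On HFD the Il6 probe was higher in LKO while the serum amyloid A genes were lower. Its F/F signal there was not well above background, so the Il6 difference is a bound. Il6 has 2 probes, and the dimmer one is not described here.
Of 34 signalling and transcription factors, 19 were higher and 15 lower in LKO on HFD (median 0.08), and 12 higher and 22 lower on chow (-0.08). The 3 with the largest values on HFD all encode suppressors of cytokine signalling: Socs2 (1.41), Socs3 (1.27) and Socs1 (0.56). Socs3, which is induced by STAT3 and inhibits interleukin-6 signalling, had 7072 in F/F on chow, 2097 in LKO on chow, 515 in F/F on HFD and 1398 in LKO on HFD. Its genotype difference was -1.70 on chow and 1.27 on HFD, opposite on both diets to that of Saa1. Stat3 itself differed by 0.29 on chow and 0.10 on HFD, and Cebpb, a C/EBP factor of the acute phase, by 0.07 and -0.45.
Among 15 of 17 receptors and partners of the members with a value on HFD, 6 were higher and 9 lower in LKO (median -0.07), among them the Fc receptor Fcgr1 (1.06), which binds pentraxins, and Tlr4 (0.97). The haptoglobin-haemoglobin receptor Cd163 differed by -0.65. Macrophages carry these 3 receptors, and 10 of 12 monocyte and macrophage markers were higher in LKO on HFD (median 0.69). The other 2, Marco (-1.64) and Timd4 (-0.95), were lower. The summed signal of the 12 on HFD was 40205 for F/F against 59246 for LKO, of which Cd5l gave 16520 and 29783. On chow the sum was 25838 for F/F and 23512 for LKO. Gpnmb was not well above background on either chow array, nor Ccr2 on that of LKO. Saa3 was lower in LKO on HFD beside these markers, and the part of macrophages in any member's value was not tested.

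Likeness was measured as the distance between 4 log2 values, each gene centred on its own mean over the arrays, among 13971 genes well above background on all of them. The gene nearest to Saa1 was Saa2 (distance 0.24), and Saa4 was at 0.61. Of the genes that are no members, the nearest were Whrn (0.25, from signals of 8.59 to 32.7), G0s2 (0.40), Upp2 (0.43), Mchr1 (0.47, from 7.87 to 36.1) and Gpcpd1 (0.47). G0s2, an inhibitor of the lipase ATGL, had 5188 and 7243 on the chow arrays of F/F and LKO and 3133 and 1821 on the HFD arrays. For Lcn2 the nearest were Slc37a1 (0.17), Gm10334 (0.18), Zfp458 (0.19), Nrg4 (0.20) and Nat8f5 (0.23), with Apcs at 0.52 and Saa1 at 1.30. Whrn and Mchr1 were dim, as were Slc37a1, Gm10334 and Zfp458, and 4 arrays leave many genes near any pattern.

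Facts of the whole series bear on these values as follows. Between 53.0% and 57.0% of the spots of an array were well above background. The targeted gene Mboat7, with 1 probe, had 1102 and 861 in F/F and LKO on chow and 1181 and 1100 on HFD (-0.30 and -0.27), and whether the probe lies in the deleted part is not given in the sources used here. Exocrine pancreas markers stood apart on the LKO HFD array, where 12 of 12 were higher than in F/F, with a summed signal of 15600 against 3740 in F/F on HFD, and 6017 and 3369 on chow. Their part in the members' values was not tested.

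In all, 7 processing alternatives were set against these differences, and 36 of 40 kept their sign in all of them. Dropping the filter, or filtering on all 4 arrays, could not change a member, since every member probe was well above background on each array. Averaging the probes of a gene could change Lcn2 alone. The 4 others were small: Orm1, Hp and Apcs for diet in F/F, which reached 0.07, 0.06 and 0.09, and Orm3 for diet in LKO, which reached 0.10. On HFD the genotype difference of Saa1 ranged from -1.22 to -1.14, that of Saa4 from -1.24 to -1.14, that of Orm3 from -1.09 to -0.97 and that of Saa2 from -1.01 to -0.79.

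**Figure D5:**
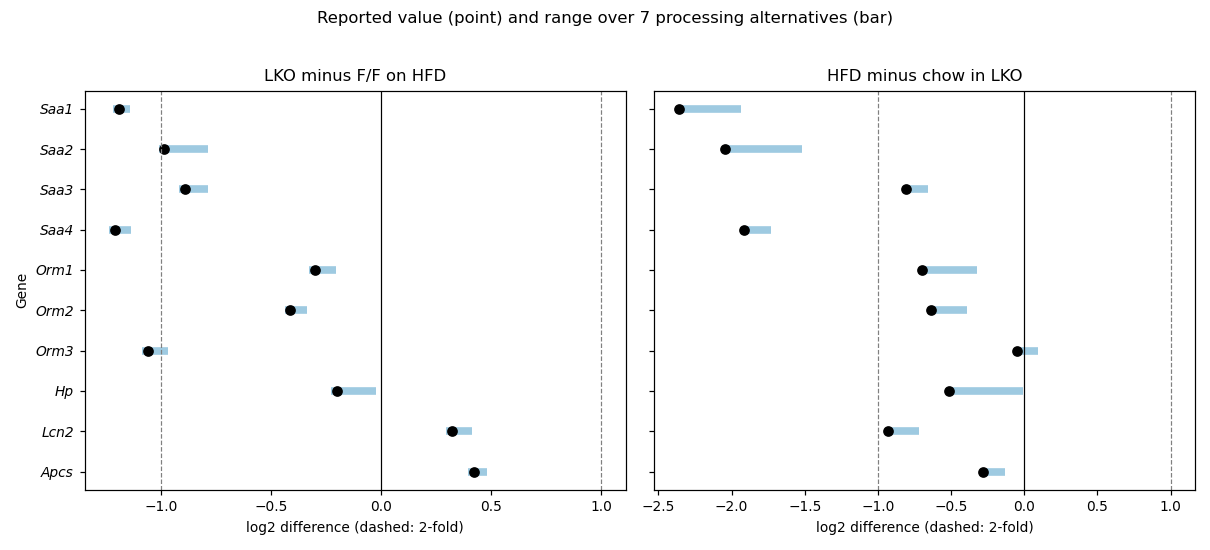
Log2 difference (horizontal axis) of each gene (vertical axis) for LKO minus F/F on HFD (left) and HFD minus chow in LKO (right); points are the values given in the text, bars their range over 7 processing alternatives and dashed lines mark 2-fold. Saa1 and Saa4 stayed beyond 2-fold lower in both comparisons, and Hp came as close to 0 as -0.02 (left) and -0.01 (right).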

How the data were processed

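Liver RNA of 4 conditions (F/F or LKO, chow or HFD) was labelled with Cy3 and hybridised to 4 one-colour Agilent arrays. Spot intensity values were deposited by the authors as output of Agilent Feature Extraction 12.0.3.1, background-subtracted, with flags for outliers and for signals well above background, and a table of values in which each array's intensity was multiplied by 1 factor (2.60 and 2.63 for the chow arrays of F/F and LKO, 2.41 and 2.10 for their HFD arrays), whose origin is not given in the sources used here. RNA was purified with a GenElute kit per the labels and with another kit per the methods.

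Log2 of the deposited processed intensity minus each array's 75th percentile over the 59305 spots that are not controls was computed in Python 3.11.15 (numpy 2.4.6, pandas 2.3.3). Spots of a probe were averaged without outliers. Transcript accessions matched 33767 of 56605 probes (59.7%) to 23462 genes of RefSeq (GRCm38.p6), and the brightest probe stood for a gene. A gene well above background on neither array of a comparison had no value, and on 1 array a bound. Array number limits precision, and no test was made. Named were all members, the 5 genes nearest to Saa1 and to Lcn2, the 3 genes of each list with the largest HFD genotype difference measured on both arrays, and genes whose role is given beside a member; some of these are not reported here. Members, lists and rules were chosen with earlier results of these data known. Alternatives were normexp (offset 50, limma 3.58.1, R 4.3.3), quantile normalization, the percentile over probes well above background, the deposited table, no filter, a filter on all 4 arrays, the mean of all probes, and thresholds of 1.5-fold and 4-fold. Steps were tested on simulated data. Promoters were aligned with biopython 1.88 and figures drawn with matplotlib 3.10.9.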

Additional observations from a re-analysis of the deposited data

Results flagged for a closer look

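For 4 genes the genotype difference had opposite signs on the 2 diets and lay beyond the technical spread on both. These genes were higher in LKO than in F/F on chow and lower on HFD. Orm3 and Hp changed sign in the same way, but their chow differences (0.08 and 0.09) were within the technical spread. The HFD difference minus the chow difference (log2) was -1.95 for Saa1, -1.52 for Saa2, -0.57 for Orm1 and -0.65 for Orm2. With 1 array per condition no difference between the diets was tested, and Saa1 and Saa2, as near-identical copies, are not independent of each other. The share of all genes with opposite signs of this kind is not given here.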

How the results depend on the processing

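Under the 7 alternatives that keep the 2-fold threshold, the counts of members past it stayed as given, except that 2 members (Orm3 not among them) were lower in LKO on HFD with normexp and 4 (Saa2 added) in the deposited table, against 3. Of these alternatives, the filter settings could not change a member and averaging of probes could change Lcn2 alone. At 1.5-fold instead of 2-fold, 3 members were higher in LKO on chow (3.52% of all genes were), 5 were lower in LKO on HFD (6.08%), 1 was lower on HFD in F/F (9.6%) and 7 were lower on HFD in LKO (11.7%). At 4-fold, 0 members were lower in LKO on HFD (0.348% of all genes were), 0 were higher on HFD in F/F (0.886%) and 2 were lower on HFD in LKO (0.761%). Quantile normalization moved the HFD genotype median of the other positive acute phase proteins to 0.06 and of the negative ones to 0.00, and averaging every probe of a gene moved that of the cytokines and receptors to 0.06, so the direction given for these 3 lists does not hold under those settings. The deposited table's own scale moved the median of all genes for diet in F/F from -0.02 to 0.11, and the members' median there from -0.19 to -0.05. No paired analysis was possible because each condition has 1 array. Signal over background limits the dim genes, Il6, Il22, Whrn and Mchr1 among them, and the variation between mice is unknown.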
